A study of Mus musculus with 9 samples.

Results

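The 36 genes described here encode the mucins, mucus proteins, transcription factors and granule machinery of goblet cells, the mucus-secreting cells of the colon epithelium. They were chosen by symbol, and each symbol stood on 1 row of a table of 35315 genes. RNA was sequenced from colon tissue of 8-week-old C57BL/6J mice labelled WT, in 3 groups of 3 libraries. Control mice drank normal water. The DSS group drank 2.5% dextran sulfate sodium, a detergent-like polymer that injures the colon lining, for 7 days and received solvent injections on days 2, 4 and 6. The GsMTx4 group had the same DSS water and received intravenous GsMTx4, a spider venom peptide that blocks mechanosensitive channels, at 10 mg/kg on those days. All mice of both injected groups therefore drank DSS, no group received GsMTx4 without DSS, and no injection is listed for Control. The effects of DSS and of the solvent injections cannot be told apart in the comparison with Control.

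Goblet cells arise from crypt progenitors under the transcription factor Atoh1 and mature under Spdef and forkhead factors. They fold the gel-forming mucin Muc2 in the endoplasmic reticulum with the disulfide isomerase Agr2, pack it in granules and release it to form the mucus layer that keeps bacteria away from the epithelium. Membrane mucins stay anchored on epithelial surfaces, including those of absorptive cells.

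The promoter windows of 5 of these genes are shown. Foxa2, Atoh1, Klk1 and Hepacam2 are 4 of the 9 transcripts that fell in DSS colon, and Muc2 did not pass the test. Creb3l4 and Sytl4 also fell and had windows, which were searched but are not printed. Each window is the 250 bases 5′ of a start site, read on the strand of the gene, from RefSeq on GRCm38.p6. Capitals mark a match, on either strand, to 1 of the 4 words searched, which were TGTTTAC (forkhead), CAGCTG and CAGATG (E-boxes, the kind of word bound by Atoh1 and its relatives) and TGACGT (the core bound by CREB-type factors). Foxa2 has 3 windows, and the one at the 5′ end of the gene model is shown. The Hepacam2 window lies inside the gene model, before a downstream start.
Foxa2, chr2:148046970-148047219, minus strand: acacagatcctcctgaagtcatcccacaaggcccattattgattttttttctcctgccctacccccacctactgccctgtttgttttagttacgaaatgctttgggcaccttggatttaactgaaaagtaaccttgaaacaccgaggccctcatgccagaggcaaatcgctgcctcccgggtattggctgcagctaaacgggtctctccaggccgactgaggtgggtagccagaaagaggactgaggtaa
Atoh1, chr6:64728875-64729124, plus strand: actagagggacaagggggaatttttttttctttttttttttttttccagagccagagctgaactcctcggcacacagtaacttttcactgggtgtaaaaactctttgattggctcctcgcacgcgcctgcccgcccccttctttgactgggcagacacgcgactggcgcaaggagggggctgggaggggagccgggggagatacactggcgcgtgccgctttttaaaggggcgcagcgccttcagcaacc
Klk1, chr7:44225110-44225359, plus strand: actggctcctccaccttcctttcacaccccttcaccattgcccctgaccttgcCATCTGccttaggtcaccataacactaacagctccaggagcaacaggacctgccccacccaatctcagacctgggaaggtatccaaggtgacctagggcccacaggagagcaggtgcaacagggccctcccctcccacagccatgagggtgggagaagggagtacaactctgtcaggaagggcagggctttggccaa
Hepacam2, chr6:3494499-3494748, minus strand: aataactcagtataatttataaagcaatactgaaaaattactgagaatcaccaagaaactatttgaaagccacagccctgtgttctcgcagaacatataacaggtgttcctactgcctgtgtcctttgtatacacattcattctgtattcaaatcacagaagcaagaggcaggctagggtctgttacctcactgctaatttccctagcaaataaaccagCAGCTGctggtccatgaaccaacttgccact
Muc2, chr7:141690090-141690339, plus strand: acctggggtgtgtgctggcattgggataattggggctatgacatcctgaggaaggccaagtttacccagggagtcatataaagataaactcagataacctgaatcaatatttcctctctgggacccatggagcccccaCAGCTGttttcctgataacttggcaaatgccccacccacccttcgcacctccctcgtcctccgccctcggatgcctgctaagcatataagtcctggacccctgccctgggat
The printed Foxa2 and Atoh1 windows held none of the 4 words, and neither did the Sytl4 window, which is not printed. The Hepacam2 window held CAGCTG, whose first base lies 31 bases before the start site, and the Muc2 window held the same word 112 bases before it. The Klk1 window held CAGATG on the opposite strand, 197 bases before the start. Windows were found for 24 of the 36 genes, 32 windows in all. CAGCTG occurred in 4 of the 32 windows, those of 4 genes (Fcgbp, Hepacam2, Muc2 and Rab27a), and in 13.0% of all 32851 windows of the same length. CAGATG occurred in 5 of the 32, those of 5 genes (Capn8, Creb3l4, Klk1, Muc1 and Muc13), and in 14.4% of all windows. TGTTTAC occurred in 2 of the 32 (Foxa1 and Muc20) and in 3.17% of all windows, and TGACGT in 1 (Spdef) and in 6.47%. None of the 12 matches overlapped another.

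Values are FPKM, fragments per kilobase of transcript scaled to library size. Levels of different genes can be set side by side only as far as the transcript lengths used, which are not given, are right. The library sums were between 349125 and 440935 FPKM, and between 12830 and 14036 genes reached 1 FPKM. The tissue label was checked on 12 epithelial genes such as Epcam and Cdh1, all expressed, with summed levels of 6025 to 7400.5 FPKM in Control, 5884 to 8299.9 in DSS and 5934 to 7564 in the GsMTx4 group. The mean log2(FPKM + 1) of these genes was 8.25 to 8.50 in Control, 8.34 to 8.51 in DSS and 8.16 to 8.20 in the GsMTx4 group. By that mean, every GsMTx4 library lay below every Control and DSS library. The 5 stomach genes in the table summed to 0.299 FPKM or less in every library. Leukocyte genes summed to 498 to 757 FPKM in Control, 1187 to 1463 in DSS and 669 to 803 in the GsMTx4 group, and 6 of 10 rose in DSS. Transcripts of 6000 bases or more stood lower relative to those under 1000 bases in GsMTx4 replicate 3 (a difference of -0.49 in median log2 deviation) and DSS replicate 2 (-0.22) than in the other 7 libraries (-0.03 to 0.22).

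Across all 9 libraries, 32 of the 36 genes reached 1 FPKM in at least 3 libraries and were tested. The highest means over all libraries belonged to Zg16 (1944 FPKM), Tff3 (1118), Muc13 (946), Muc3 (898) and Agr2 (653). The 4 untested genes were Muc20, at 0.229 to 0.844 FPKM, and Tff1, Tff2 and Agr3, each at 0.487 FPKM or less. Tff1 and Tff2, the trefoil peptides of stomach, were listed at 0 in all 3 Control libraries, whereas Tff3, the intestinal trefoil peptide, was among the most abundant transcripts. The anterior gradient family split likewise, with Agr2 high and Agr3 close to 0. The plot of levels by library shows the whole set.

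**Figure D1:**
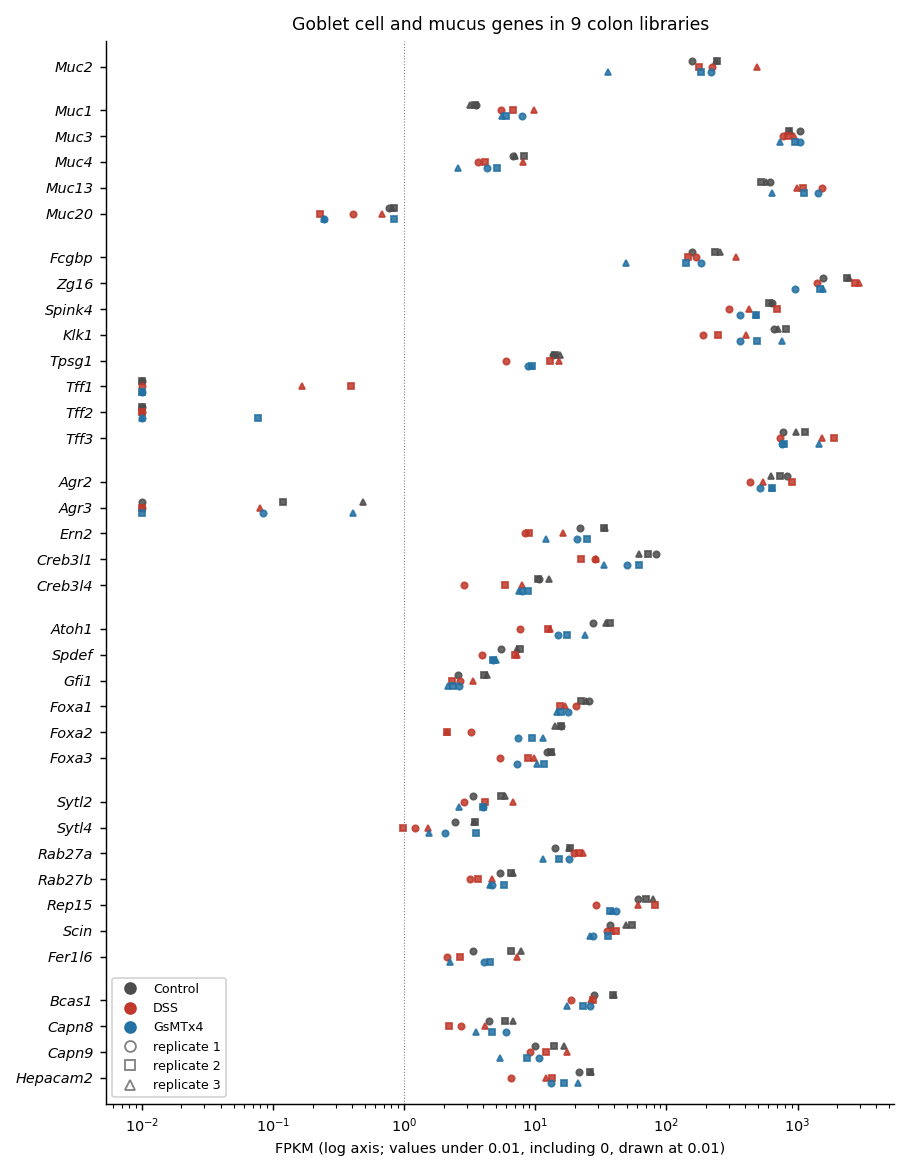
FPKM (log axis) of the 36 genes in each of the 9 libraries, grouped by role from gel-forming mucin (top) to other secretory genes (bottom). Colours are groups, marker shapes are replicate numbers, and the dotted line is 1 FPKM. Zg16 lies at 958 FPKM or more in every library, whereas Tff1, Tff2, Agr3 and Muc20 stay under 1.

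The first comparison, DSS against Control, sets the injured colon beside the uninjured one. The transcription factors Foxa2 and Atoh1 and the endoplasmic reticulum genes Creb3l1, Ern2 and Creb3l4 fell, while the secreted products Muc2, Zg16, Fcgbp and Tff3 did not pass the test. The membrane mucins Muc1 and Muc13 rose. Of the 32 tested genes 2 rose (6.25%) and 9 fell (28.1%), against 6.41% and 10.7% of all 14360 genes tested (17.1% in either direction). The call was an adjusted p under 0.05 in limma on log2(FPKM + 1), a scale that understates the change of low transcripts. At an unadjusted p under 0.05, 15 of the 32 passed (46.9%, against 34.9% of all genes), 13 of them lower (23.2% of all genes were). The median log2 fold change was -0.42 for the 32 genes and -0.17 for all genes tested. In whole tissue, fewer goblet cells and less RNA per cell cannot be told apart. Under median-of-ratios scaling the share of higher calls among all calls moved from 37.4% to 59.0%, and under quantile normalization to 48.4%.

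By role, 2 of 4 membrane mucins rose. Of the 6 genes grouped as other secreted proteins, which include the transmembrane tryptase Tpsg1, 1 fell. So did 3 of 4 folding and reticulum genes, 2 of 6 transcription factors, 2 of 7 trafficking genes and 1 of 4 other secretory genes. The 21 others did not pass, Muc2 among them. Differences between these roles were not tested. The ranges of DSS and Control did not overlap for 16 of the 32 genes, 3 above (9.38%, against 13.5% of all genes) and 13 below (40.6%, against 33.6%).

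**Figure D2:**
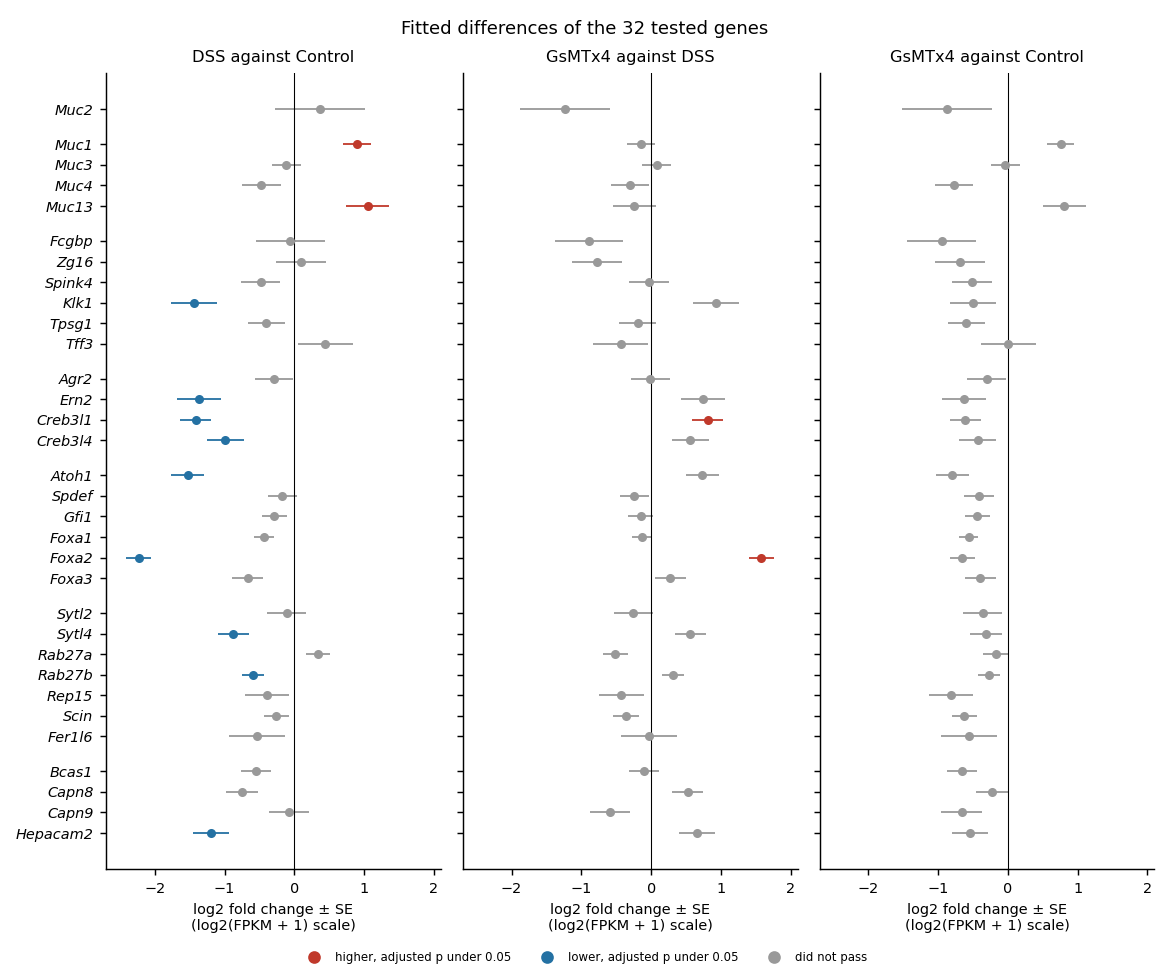
Fitted log2 fold change with its standard error (x axis, log2(FPKM + 1) scale) for the 32 tested genes (y axis, ordered by role) in the 3 comparisons. Red and blue mark an adjusted p under 0.05, higher and lower, and grey did not pass. The 9 blue points lie in the DSS against Control panel, and Foxa2 is the farthest from 0 there and in the GsMTx4 against DSS panel.

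Among the transcription factors, Foxa2, a forkhead factor of endoderm and secretory cells (chr2:148042877-148046969 on GRCm38), had 15.8, 15.7 and 14.1 FPKM in Control, 3.22, 2.14 and 2.11 in DSS and 7.45, 9.38 and 11.5 in the GsMTx4 group. The 3 groups did not overlap, with Control highest and DSS lowest. The fitted difference between DSS and Control was -2.23 ± 0.18 log2 units (SE, adjusted p = 0.000471). Its relatives Foxa1 and Foxa3 were above it in every DSS library. Foxa1 had 25.5, 22.2 and 24.4 FPKM in Control, 20.5, 15.5 and 16.8 in DSS and 17.6, 15.6 and 14.7 in the GsMTx4 group, and its DSS values lay below all Control values (adjusted p = 0.0601). Foxa3 had 12.2, 13.3 and 13.4 FPKM in Control, 5.38, 8.82 and 9.74 in DSS and 7.22, 11.7 and 10.3 in the GsMTx4 group, also with DSS below Control (adjusted p = 0.0665). Neither passed the test.

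Atoh1, the basic helix-loop-helix factor that commits progenitors to secretory fates (chr6:64729125-64731245), had 27.5, 37 and 34.5 FPKM in Control, 7.62, 12.4 and 12.8 in DSS and 14.9, 17.4 and 24.1 in the GsMTx4 group. Its 3 groups did not overlap either, in the order Control, GsMTx4, DSS. In DSS it fell from 33 ± 4.96 to 11 ± 2.89 FPKM (SD, n = 3), with an adjusted p of 0.00409 in limma. Spdef, the ETS factor of goblet cell maturation, had 5.49, 7.69 and 7.23 FPKM in Control, 3.9, 7.05 and 7.21 in DSS and 4.72, 4.72 and 5.0 in the GsMTx4 group. DSS replicate 1 was low and the other 2 DSS libraries lay within the Control range, and the difference was within 1 SE of 0 (SE 0.21, adjusted p = 0.572). Gfi1, a zinc finger repressor acting with Atoh1 in secretory cells, ranged from 2.16 to 4.27 FPKM with no call in any comparison.

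The folding and reticulum genes came next in the order of roles. Creb3l1, a membrane-bound transcription factor released under stress of the reticulum (chr2:91982328-92024502), had 83.4, 72.9 and 62 FPKM in Control, 28.3, 22.4 and 29.1 in DSS and 50.4, 61.3 and 33.6 in the GsMTx4 group. All DSS values lay below all GsMTx4 values, which lay below all Control values, the closest of these being GsMTx4 replicate 2 and Control replicate 3. It fell in DSS with an adjusted p of 0.00486. Its relative Creb3l4 had 10.7, 10.6 and 12.7 FPKM in Control, 2.85, 5.91 and 7.89 in DSS and 7.96, 8.82 and 7.56 in the GsMTx4 group. The DSS and Control ranges were apart, and the difference was -0.99 ± 0.27 log2 units (SE, adjusted p = 0.0341).

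Ern2, the gut form of the stress sensor IRE1 (IRE1β), had 21.7, 33.4 and 34.1 FPKM in Control, 8.34, 8.9 and 16.2 in DSS and 21, 24.9 and 12 in the GsMTx4 group. Every DSS library lay below every Control library, with a difference of -1.37 ± 0.32 log2 units (SE, adjusted p = 0.0206). Agr2, the disulfide isomerase that works on Muc2, had 835, 741 and 631 FPKM in Control, 430.5, 907 and 543 in DSS and 515, 637 and 633 in the GsMTx4 group. DSS replicate 2 held its highest value and DSS replicate 1 its lowest, so the DSS range enclosed the Control range (-0.29 ± 0.28 log2 units, SE, adjusted p = 0.47).

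Muc2, the gel-forming mucin of colon mucus (chr7:141690340-141754693), had 156, 242 and 240.5 FPKM in Control, 222, 178 and 495 in DSS and 219.8, 184 and 35.9 in the GsMTx4 group. DSS replicate 3 was the highest of all and the other 2 DSS libraries lay within the Control range, so the fitted difference was within 1 SE of 0 (SE 0.64). Fcgbp, a large mucus protein rich in von Willebrand factor type D domains, had 157, 233 and 257 FPKM in Control, 168, 147 and 339 in DSS and 183, 142 and 49.2 in the GsMTx4 group. It followed Muc2 in its highest and lowest libraries, DSS replicate 3 and GsMTx4 replicate 3, and its difference was also within 1 SE of 0 (SE 0.49).

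Zg16, a lectin-like protein that binds Gram-positive bacteria, had 1574, 2379 and 2464 FPKM in Control, 1398, 2749 and 2921 in DSS and 958, 1492 and 1565 in the GsMTx4 group. DSS replicate 1 was below, and the other 2 DSS libraries above, every Control value (within 1 SE of 0, SE 0.36). Tff3 had 774, 1137 and 978 FPKM in Control, 739, 1899 and 1533 in DSS and 755, 782 and 1466 in the GsMTx4 group. Again DSS replicate 1 was low and the other 2 DSS libraries were the highest of the 9 (0.44 ± 0.39 log2 units, SE, adjusted p = 0.443). Spink4, a Kazal-type protease inhibitor, had 634, 611 and 636 FPKM in Control, 302, 694 and 427 in DSS and 366, 485 and 478 in the GsMTx4 group. Its 3 Control values lay close together, between the DSS values, and it did not pass (adjusted p = 0.251). The plot of secreted products shows that spread.

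**Figure D3:**
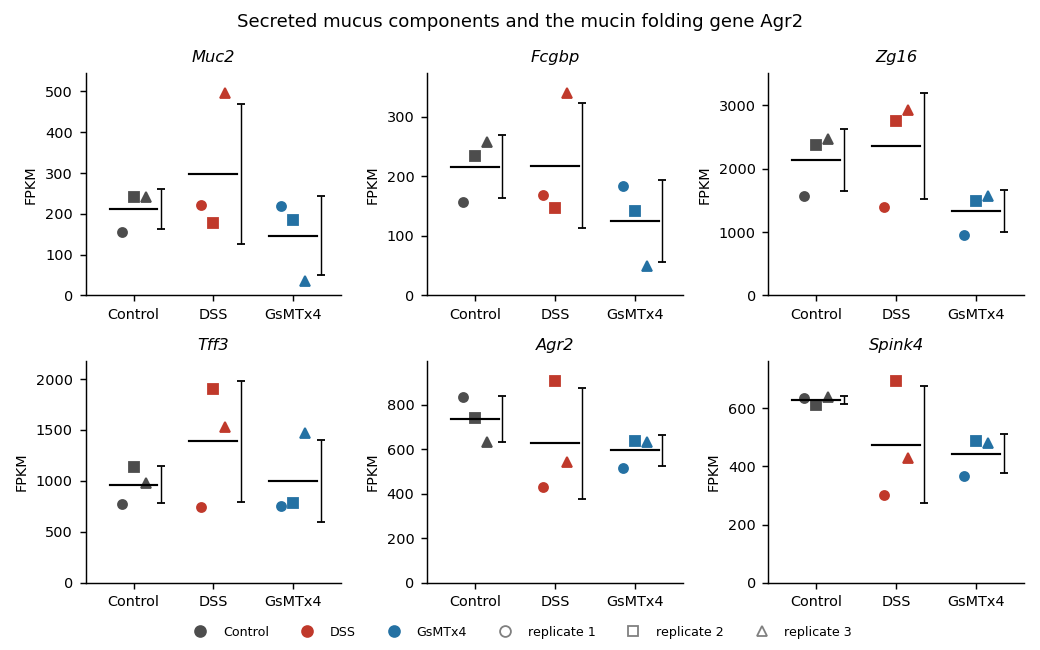
FPKM (y axis, from 0) of 5 secreted mucus components and Agr2 in each library by group (x axis), with markers by replicate number, a line at the group mean and a bar of 1 SD beside it. The DSS libraries spread more widely than Control for each of the 6 genes, and GsMTx4 replicate 3 is lowest for Muc2 and Fcgbp.

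Klk1, tissue kallikrein, a secreted serine protease (chr7:44225360-44229618), was the 1 secreted protein that fell in DSS. It had 660.4, 813 and 713 FPKM in Control, 191, 248 and 402 in DSS and 361, 489 and 757 in the GsMTx4 group. All DSS values were below all Control values, with a difference of -1.44 ± 0.33 log2 units (SE, adjusted p = 0.0193). The pancreatic elastase gene Cela1 was also lower in DSS, at 57.5, 64.3 and 63 FPKM in Control, 24.1, 20.9 and 25.4 in DSS and 64.9, 76 and 126 in the GsMTx4 group. Unlike Klk1, it lay above every Control value in every GsMTx4 library. Any link between the Cela1 and Klk1 values was not tested. The 7 other pancreas and salivary genes in the table stayed out of the test for low values. Tpsg1, a transmembrane tryptase, ranged from 6.03 to 15.5 FPKM and did not pass (adjusted p = 0.304), and 0 of 4 tested mast cell genes passed in DSS against Control, with 2 lower at an unadjusted p under 0.05.

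Of the membrane mucins, Muc1 and Muc13 rose in DSS. Muc1 had 3.53, 3.5 and 3.2 FPKM in Control, 5.49, 6.82 and 9.86 in DSS and 7.91, 6.01 and 5.57 in the GsMTx4 group. All DSS and all GsMTx4 libraries lay above Control, and the DSS difference was 0.90 ± 0.20 log2 units (SE, adjusted p = 0.0171). Muc13, an abundant mucin of the apical membrane, had 615, 531 and 574 FPKM in Control, 1524, 1106 and 991 in DSS and 1429, 1112 and 635 in the GsMTx4 group. Its DSS range was above Control, by 1.05 ± 0.31 log2 units (SE, adjusted p = 0.0466). Muc13 overlaps the antisense gene Gm15657 by 2838 bases, which averaged 3.0 FPKM, and whether reads were counted by strand is not given in the sources used here. Bcas1, Zg16 and Klk1 also overlap genes on the opposite strand, by 24075, 2584 and 2062 bases at most.

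Muc3, the other abundant membrane mucin, had 1050.1, 855 and 879 FPKM in Control, 769.6, 849 and 947 in DSS and 1050.4, 949 and 732 in the GsMTx4 group. The 3 groups overlapped, and the DSS difference was within 1 SE of 0 (SE 0.21). Muc4 ranged from 2.6 to 8.23 FPKM, with DSS replicate 3 at 8.05 FPKM inside the Control range and the other 2 DSS libraries below it (adjusted p = 0.244). Muc4 and Muc20 overlap by 4973 bases on opposite strands. Muc20 was at 0.768 to 0.83 FPKM in Control and 0.229 to 0.675 in DSS.

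Of the trafficking genes, the Rab27 effector Sytl4 fell in DSS. It had 2.44, 3.5 and 3.39 FPKM in Control, 1.21, 0.981 and 1.53 in DSS and 2.04, 3.56 and 1.56 in the GsMTx4 group, and DSS was below Control in every pair of libraries (-0.87 ± 0.22 log2 units, SE, adjusted p = 0.0294, or 0.054 with equal replicate numbers fitted as a block). The small GTPase Rab27b, which docks secretory granules, had 5.37, 6.48 and 6.81 FPKM in Control, 3.16, 3.63 and 4.68 in DSS and 4.68, 5.73 and 4.48 in the GsMTx4 group. Its DSS values also lay below all Control values, with a difference of -0.59 ± 0.16 log2 units (SE, adjusted p = 0.0348). Its paralog Rab27a had 14.2, 18.3 and 18.1 FPKM in Control, 19.8, 21.5 and 23.1 in DSS and 18.2, 15.2 and 11.5 in the GsMTx4 group, with DSS above Control in every library (adjusted p = 0.202, not passed). The Rab27b call passed in 10 of 21 alternatives, as did the Muc13 call, and the Creb3l4 call passed in 13. The Rab27b call was lost with TPM rescaling (adjusted p = 0.052), median-of-ratios scaling (0.0518), epithelium scaling (0.0564), the replicate block (0.0548) and the length and GC correction (0.0693), as well as with no filter and 5 of the libraries left out. A direct test of the Rab27a against the Rab27b difference was not made. The effector Sytl2 (2.62 to 6.77 FPKM), the Rab15 effector Rep15 (28.9 to 82.5), the actin-severing protein Scin (26.2 to 54.9) and the ferlin Fer1l6 (2.14 to 7.77) did not pass.

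Hepacam2, an immunoglobulin-family protein of secretory cells (chr6:3457096-3498298), had 21.6, 26.2 and 26.5 FPKM in Control, 6.5, 13.4 and 12 in DSS and 13.1, 16.5 and 21.3 in the GsMTx4 group. DSS lay below Control throughout (-1.20 ± 0.26 log2 units, SE, adjusted p = 0.0154). The calpain Capn8 had 4.42, 5.91 and 6.76 FPKM in Control, 2.71, 2.2 and 4.13 in DSS and 5.94, 4.7 and 3.56 in the GsMTx4 group, with DSS below Control and an adjusted p of 0.051 that missed the 0.05 threshold. Bcas1 ranged from 17.4 to 40.01 FPKM (adjusted p = 0.103) and the calpain Capn9 from 5.36 to 17.5 (adjusted p = 0.866). DSS replicate 1 held the lowest value of 14 of the 32 genes and GsMTx4 replicate 3 of 11. The plot of the 9 lower genes gives every library.

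**Figure D4:**
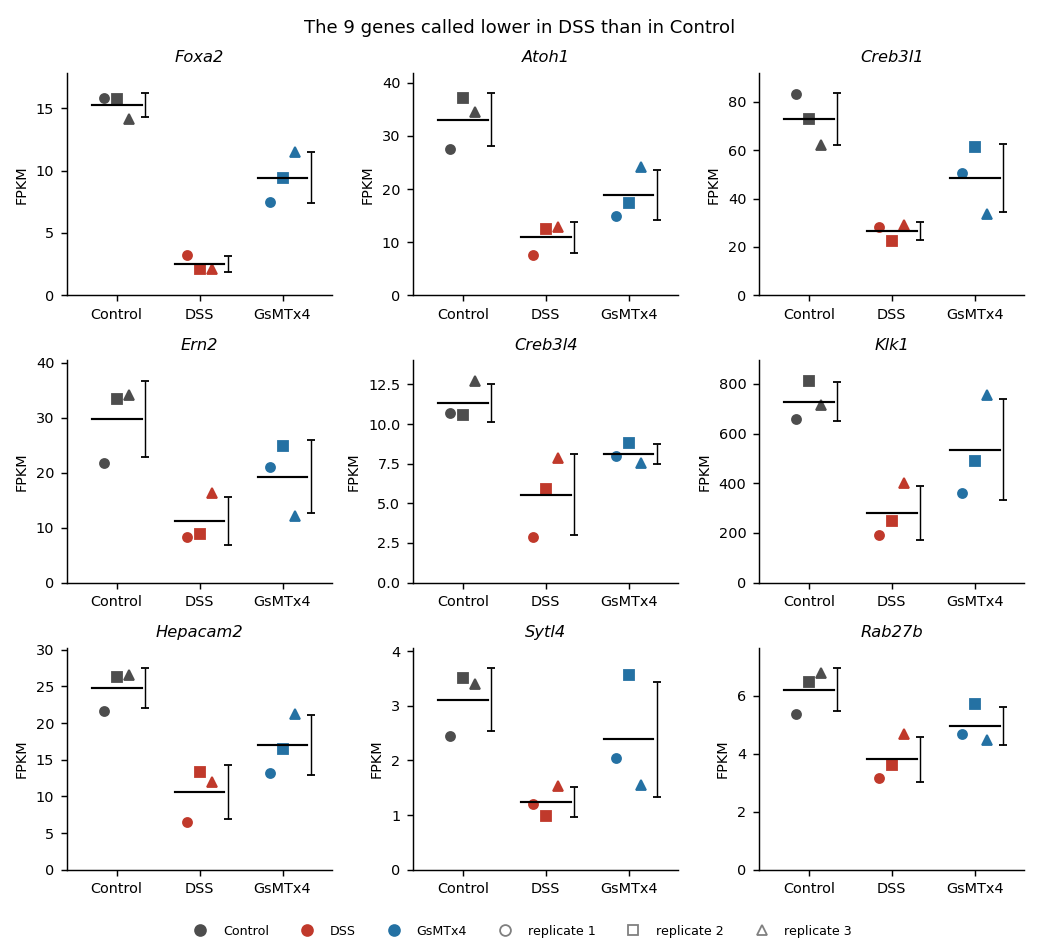
FPKM (y axis, from 0) of the 9 genes that fell in DSS, in each library by group (x axis), with a line at the group mean and a bar of 1 SD. Every DSS point lies below every Control point in all 9 panels, and the GsMTx4 points lie above all DSS points for Foxa2, Atoh1, Creb3l1 and Sytl4.

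The Foxa2, Atoh1 and Creb3l1 calls held with each of the 9 libraries left out in turn (highest adjusted p 0.00416, 0.0224 and 0.0238). Hepacam2 lost its call without Control 2 or 3 (adjusted p 0.059 to 0.0615), and Klk1 (0.0536 to 0.075), Ern2 (0.0566 to 0.078) and Sytl4 (0.0642 to 0.106) lost theirs without Control 2, Control 3, DSS 1 or DSS 2. Muc1 lost it without any 1 Control library (0.0503 to 0.0639), Creb3l4 without any 1 Control library or DSS 2 (0.06 to 0.107), Rab27b without any 1 Control library, DSS 1 or DSS 2 (0.0542 to 0.12), and Muc13 without any 1 Control or DSS library or GsMTx4 2 (0.0601 to 0.142). The 9 genes lower became 3 without Control 2 or Control 3 and 4 without DSS 2, and the 2 genes higher became 0 without any 1 Control library and 1 without any 1 DSS library or GsMTx4 2. Over all 14360 genes the lower calls likewise went from 1541 to 581, 661 and 932 without Control 2, Control 3 and DSS 2, so the drop was not particular to the mucus genes.

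The second comparison, GsMTx4 against DSS, asks how the peptide alters the injured colon, since both groups drank DSS. Foxa2 and Creb3l1 rose, and the 30 others did not pass. Of the 32 genes, 2 rose (6.25%) and 0 fell, against 6.66% and 5.62% of all genes tested. When scaled to the epithelium markers 5 rose, with Klk1, Atoh1 and Hepacam2 added, while the higher calls over all genes went from 956 to 2481. With median-of-ratios scaling the all-gene calls turned from 956 higher and 807 lower to 850 higher and 1008 lower, and 2 of the 32 genes rose. At an unadjusted p under 0.05 in limma, 8 were higher and 1 lower (28.1% in all, against 30.1%, with 17.2% of all genes higher). The 8 were Foxa2, Creb3l1, Atoh1, Klk1, Hepacam2, Sytl4, Ern2 and Capn8, and the 1 was Rab27a. The median log2 fold change was -0.12 for the 32 genes and 0.07 for all genes. The 2 comparisons share the 3 DSS libraries, and their values are therefore not independent.

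Foxa2 was 1.58 ± 0.18 log2 units higher with GsMTx4 than in DSS alone (SE, adjusted p = 0.00211), its mean going from 2.49 ± 0.632 to 9.44 ± 2.02 FPKM (SD, n = 3). Creb3l1 was 0.81 ± 0.22 higher (SE, adjusted p = 0.048), from 26.6 ± 3.69 to 48.4 ± 13.9 FPKM. The Foxa2 call held without each library in turn. The Creb3l1 call was lost without any 1 library other than GsMTx4 replicate 3 (adjusted p 0.0655 to 0.15) and held without that one (0.0155).

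Atoh1 was higher in every GsMTx4 library than in every DSS library, by 0.74 ± 0.23 log2 units (SE), and did not pass (adjusted p = 0.0711). Sytl4 was likewise above DSS in all 3 libraries (adjusted p = 0.131). Besides these and the called pair, no gene of the 32 lay wholly above DSS, so 4 were above (12.5%, against 17.5% of all genes). Rab27a alone lay wholly below it (3.13%, against 12.8%), at an adjusted p of 0.0882. Klk1 (0.93 ± 0.33, SE, adjusted p = 0.0939), Hepacam2 (0.66 ± 0.26, adjusted p = 0.123) and Ern2 (0.74 ± 0.32, adjusted p = 0.157) had GsMTx4 values that overlapped DSS.

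Muc2, Fcgbp and Zg16 had fitted differences below 0 that did not pass. Muc2 was at -1.24 ± 0.64 log2 units (SE, adjusted p = 0.23), Fcgbp at -0.89 ± 0.49 (adjusted p = 0.254) and Zg16 at -0.78 ± 0.36 (adjusted p = 0.181). Muc2 in GsMTx4 replicate 3 was 35.9 FPKM, against 184 and 219.8 in the other 2 libraries. Fcgbp in that library was 49.2 FPKM, against 142 and 183. Without GsMTx4 replicate 3 the differences were -0.42 for Muc2 and -0.33 for Fcgbp, and -0.91 for Zg16. Long transcripts stood lowest in that library. The 11 genes lowest there had longest annotated forms of 1853 bases (Muc3) to 11277 bases (Muc4), with 2926 for Muc2 and 7928 for Fcgbp. With a correction for transcript length and GC content the differences were -1.24 for Muc2 and -0.78 for Fcgbp. The correction used the longest annotated form of each gene. If the Muc2 transcript in colon is longer than its annotated 2926 bases, the correction cannot show the part of length. The part of transcript length in the values of GsMTx4 replicate 3 was otherwise not tested. Muc1 and Muc13 stayed above Control in every GsMTx4 library and differed from DSS by less than 1 SE.

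The third comparison, GsMTx4 against Control, sets the treated injured colon beside the uninjured one. No gene of the 32 passed in either direction, while 0.188% of all genes rose and 0.0487% fell (0.237% in all). At an unadjusted p under 0.05 in limma, 12 of the 32 passed (37.5%, against 10.1% of all genes). Of these, 10 were lower and 2 higher, where 7.35% of all genes were lower and 2.79% higher. The fitted difference was below 0 for 29 of 32 genes, with a median of -0.52 against -0.08 for all genes. Of the 12 general epithelial genes 6 were above 0 and 6 below, with a median of -0.09, and 0 passed. Their mean log2 level was nevertheless lower in every GsMTx4 library than in every Control library. The part of epithelial content in the values of the 32 genes was not tested. The ranges did not overlap for 15 genes below (46.9%, against 14.6%) and 2 above (6.25%, against 5%).

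The 2 above were Muc1 (0.75 ± 0.20 log2 units, SE, adjusted p = 0.262) and Muc13 (0.81 ± 0.31, adjusted p = 0.427). Foxa2 was -0.65 ± 0.18 log2 units from Control (SE, adjusted p = 0.28), Atoh1 -0.79 ± 0.23 (adjusted p = 0.308) and Creb3l1 -0.61 ± 0.22 (adjusted p = 0.408). All 3 lay below Control in every GsMTx4 library, so for these genes the GsMTx4 values were intermediate. For Zg16 all 3 GsMTx4 libraries lay below Control (-0.68 ± 0.36 log2 units, SE, adjusted p = 0.56), as did Spink4, whose GsMTx4 values were 366 to 485 FPKM. Spdef lay at 4.72 to 5.0 FPKM, below Control, and Rep15 at 37.1 to 41.3 against 60.5 to 79 FPKM. Tff3 was within 1 SE of 0 (SE 0.39). A p that misses the threshold with 3 libraries a group does not show that GsMTx4 and Control colon are alike.

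Genes around the 36 were read from 5 lists of the same pathways, whose counts stand beside 6.41% higher and 10.7% lower over all genes in DSS against Control and 6.66% and 5.62% in GsMTx4 against DSS. In the list of other goblet cell genes, 3 of 15 tested rose (20%) and 4 fell (26.7%) in DSS, and 4 rose (26.7%) and 2 fell (13.3%) with GsMTx4 against DSS. Reg4, a lectin of deep crypt secretory cells, had 229.8, 215 and 196 FPKM in Control, 21.5, 13.9 and 4.91 in DSS and 38.4, 127 and 174 in the GsMTx4 group. Best2, an anion channel of colon goblet cells, had 21.3, 22.9 and 26.3 FPKM in Control, 4.63, 7.35 and 5.67 in DSS and 11.2, 12.4 and 14.9 in the GsMTx4 group. In both genes Control was highest, DSS lowest and no group overlapped another, with -1.85 log2 units in DSS against Control for Best2 (adjusted p = 0.000696) and 1.02 with GsMTx4 against DSS (adjusted p = 0.00919). Retnlb, the goblet cell cytokine RELMβ, had 15.6, 13 and 12.4 FPKM in Control, 53.8, 277 and 157 in DSS and 15.5, 20.7 and 9.5 in the GsMTx4 group, with DSS above the other 2 groups, which overlapped. It rose in DSS (3.20 log2 units, adjusted p = 0.00497) and fell with GsMTx4 (-3.11, adjusted p = 0.00773). Nlrp6, a sensor tied to mucus release, had 83, 72.2 and 78.2 FPKM in Control, 30.1, 34.8 and 19.3 in DSS and 56.9, 40.4 and 57.7 in the GsMTx4 group, and Fxyd3 also fell in DSS (-0.78), whereas the potassium channel Kcnk6 fell with GsMTx4 (-1.05). Clca1, a secreted mucus metalloprotease, had 334, 901 and 841 FPKM in Control, 142, 299 and 840.4 in DSS and 231, 377 and 339.6 in the GsMTx4 group, and passed no test (adjusted p = 0.296 in DSS against Control).

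**Figure D5:**
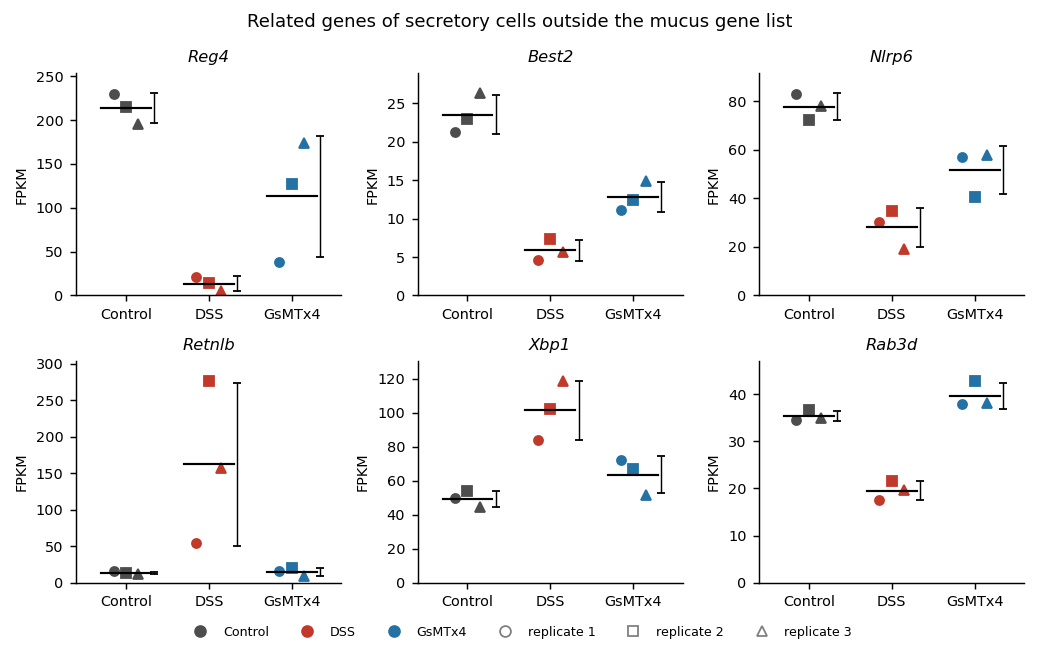
FPKM (y axis, from 0) of 6 related genes outside the set of 36, in each library by group (x axis), with a line at the group mean and a bar of 1 SD. Reg4, Best2, Nlrp6 and Rab3d are lowest in DSS and Retnlb and Xbp1 highest there.

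In the list of endoplasmic reticulum folding genes, 6 of 24 rose (25%) and 1 fell (4.17%) in DSS, and 6 fell (25%) with GsMTx4 against DSS while 18 did not pass. Xbp1, the transcription factor activated by IRE1, had 49.6, 54.1 and 44.6 FPKM in Control, 83.8, 102 and 119 in DSS and 72.2, 67.1 and 51.6 in the GsMTx4 group and rose in DSS (1.01 log2 units, adjusted p = 0.00764), as did the chaperone-like genes Creld2 (1.08) and Manf (0.76). The disulfide isomerase Pdia5 fell (-1.41). With GsMTx4, Creld2 (-0.93), Sdf2l1 (-0.89), Manf (-0.78) and Derl3 (-1.11) fell. Creb3l1, Creb3l4 and Ern2, which fell, are not in that list. Leukocyte genes, plasma cell genes Mzb1 and Jchain among them, also rose in DSS, and their part in the folding gene values was not tested.

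In the list of mucin glycosylation enzymes, 3 of 21 rose (14.3%, against 6.41% of all genes) and 6 fell (28.6%, against 10.7%) in DSS. The sialyltransferase St6galnac2 fell by 1.65 log2 units, its relative St3gal1 rose by 1.39, the initiating transferase Galnt10 fell (-0.71) and the fucosyltransferase Fut2 rose by 2.09. With GsMTx4, 3 fell (14.3%, against 5.62%) and 18 did not pass, namely St3gal1 (-1.10), Galnt3 (-0.75) and Galnt12 (-0.76). In the list of secretory lineage regulators, 1 of 19 rose (5.26%) and 7 fell (36.8%) in DSS, including the Notch ligand Dll1 (-1.12), Sox9 (-0.96), Hnf4g (-0.78) and Cdx1 (-0.79). Against DSS, Hnf4g (0.91) and Cdx1 (0.74) rose with GsMTx4 (10.5% of the list, against 6.66% of all genes).

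In the list of granule and exocytosis genes, 3 of 20 rose (15%) and 5 fell (25%) in DSS, and 6 rose (30%) and 2 fell (10%) with GsMTx4. The chloride channel Cftr (-2.69 log2 units) and the chloride importer Slc12a2 (-1.99) fell in DSS, as did Sytl1 (-1.29), a relative of Sytl4, and Rab3d (-0.83), a GTPase of secretory granules. With GsMTx4 against DSS, Rab3d (0.99), Sytl1 (1.04) and the Rab27 effector Exph5 (0.99) rose and Rab11a (-0.85) fell. Rab3d had 34.6, 36.6 and 35 FPKM in Control, 17.5, 21.5 and 19.6 in DSS and 37.9, 42.8 and 38.1 in the GsMTx4 group, with every GsMTx4 value above every Control value. No gene of the 5 lists passed in GsMTx4 against Control by limma. At an unadjusted p under 0.05 there, against 10.1% of all genes, 3 of 15 passed in the goblet list (20%), 4 of 21 in the glycosylation list (19.0%), 2 of 24 in the folding list (8.33%), 7 of 19 in the lineage list (36.8%) and 3 of 20 in the granule list (15%).

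Some of these calls were lost when 1 library was left out, with no change of sign. All-gene calls also fell there, from 2462 in either direction to 382 higher and 581 lower without Control 2 in DSS against Control. The Fut2 difference stayed between 2.03 and 2.27 log2 units over its 21 alternatives while the call was lost. In DSS against Control, Galnt10 (0.0591 to 0.0721) and Manf (0.0514 to 0.0554) were lost without Control 2 or 3, Cdx1 (0.0544 to 0.0568) without Control 1 or 2, and Fut2 (0.0577 to 0.0713) without any 1 Control library, DSS 2 or DSS 3, all as adjusted p. In GsMTx4 against DSS, Reg4 (0.0625), Creld2 (0.057), Manf (0.0569) and Sdf2l1 (0.0575) were lost without GsMTx4 2, Galnt3 (0.0507) without DSS 2, Kcnk6 (0.0513 to 0.0563) without DSS 2 or 3, and Cdx1 (0.058 to 0.0803) without DSS 3 or GsMTx4 2. Galnt12 was lost without DSS 2, DSS 3 or Control 2, which enters only the shared spread (0.0515 to 0.0729), and Derl3 without Control 1, DSS 1, DSS 3 or any 1 GsMTx4 library (0.051 to 0.114).

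Markers of other epithelial cells were read beside the goblet genes. Colonocyte genes summed to 2079 to 2949.9 FPKM in Control, 3624 to 4500.1 in DSS and 2593 to 2871 in the GsMTx4 group, with 3 of 12 higher and 1 lower in DSS. Saa1 alone held 170 to 307 FPKM of that sum in Control, 498 to 928 in DSS and 667 to 954 in the GsMTx4 group. By fitted difference from Control, 8 of the 12 were above 0 and 4 below in DSS, and 4 above and 8 below with GsMTx4. Aqp8 averaged 364 FPKM in Control and 103 in DSS, and Guca2a 233 in Control and 89.0 in the GsMTx4 group. In the order Control, DSS and GsMTx4, enteroendocrine genes summed to 315 to 371, 369 to 566 and 276 to 297 FPKM (1 of 10 higher in DSS). Tuft cell genes summed to 16.4 to 20.2, 28.0 to 45.6 and 15.9 to 19.2 (2 of 4 higher). The Paneth cell list summed to 1.69 to 3.02, 4.82 to 11.3 and 1.19 to 4.61, and Lyz1 was the 1 gene tested there and rose. Its untested genes Mmp7 and Itln1 averaged 0.219 and 0.459 FPKM in Control and 0.229 and 0.391 in DSS. Stromal genes summed to 300.1 to 390.2, 219 to 609 and 343 to 448 FPKM (1 of 9 higher). The part of these cell types in the goblet gene differences was not tested, and among the 12 general epithelial genes 1, Elf3, was higher in DSS (2 higher and 0 lower at an unadjusted p under 0.05).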

How the data were processed

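RNA-seq of mouse colon was read from 1 deposited table of gene-level FPKM values, the unit the authors deposited, for 9 libraries in 3 groups of 3, grouped by the labels. The submitters' processing notes name cutadapt, FastQC and the build GRCm38. Which alignment tool and FPKM program followed is not stated in the labels or headers, so depth and counting error are unknown. The labels do not say that replicates were separate animals, so p-values measure only the spread between these libraries, which may be technical. GENCODE gene models on GRCm38 gave symbols and coordinates (35196 of 35315 genes matched), and RefSeq gave promoter windows.

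Genes reaching 1 FPKM in 3 or more of the 9 libraries (14360, 32 of the 36 members) were fitted with limma 3.58.1 (R 4.3.3) on log2(FPKM + 1), with 1 mean per group over all 9 libraries (6 residual degrees of freedom) and trended empirical Bayes. Tests were two-sided, with Benjamini-Hochberg adjustment over all genes and a threshold of 0.05. The fit was tested on simulated data. A fold change is printed where it was called or exceeded its SE. Values in every library were planned for called members, the 5 with the highest mean, and Muc2, Atoh1, Spdef, Tff3, Fcgbp, Zg16, Clca1 and Agr2, and in each pathway list the 4 called genes with the smallest p per comparison were named. Spink4, Foxa1, Foxa3, Rab27a, Capn8, Muc20, Rep15, Cela1, Nlrp6, Xbp1, Retnlb, Reg4, Best2 and Rab3d had values added after they were seen. Members and lists were chosen with earlier results of these data known. Alternatives covered the pseudocount (0.1), filters, scalings, empirical Bayes settings, the replicate block and each library left out. A correction for transcript length and GC content was chosen after seeing the data.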

Additional observations from a re-analysis of the deposited data

How the results depend on the processing

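Of 900 recomputed values of the mucus genes (43 fold changes under up to 21 alternatives), 832 kept their direction and side of the threshold, 5 gained the call and 0 reversed. The other 63 were losses, all among the 13 called values, of which 209 of 272 recomputations passed. Of 1544 values of the pathway genes, 1406 kept both, 125 lost the call, 13 gained it and 0 reversed. In DSS against Control, 1 gene was higher in place of 2 with no filter, after TPM rescaling, with quantile normalization and when scaled to the epithelium markers, and 4 were lower in place of 9 with no filter, under which more genes were tested. Muc13 was the higher call lost each time. Creb3l4 lost its call with no filter, median-of-ratios scaling, quantile normalization and only the compared groups fitted. In GsMTx4 against DSS, 1 was higher in place of 2 with no filter, after TPM rescaling and with only the compared groups fitted. Creb3l1 lost its call in each of these and passed in 9 of 21 alternatives. In GsMTx4 against DSS 5 were higher when scaled to the epithelium markers. That scaling subtracts 1 value per library, so it adds 0.24 log2 units to every difference in this comparison and also changes the spread within groups. The cause of the other changes was not tested. Leaving out 1 library gave 0 to 2 higher and 3 to 11 lower in DSS against Control, 1 to 2 higher and 0 to 2 lower in GsMTx4 against DSS, and 0 in either direction in GsMTx4 against Control. The all-gene median of log2 differences shifted with TPM rescaling by -0.11 in DSS against Control and GsMTx4 against Control, with median-of-ratios scaling by 0.14 in DSS against Control, and with epithelium scaling by 0.24 in GsMTx4 against DSS and 0.17 in GsMTx4 against Control, where the share of higher calls among all calls in GsMTx4 against DSS went from 54.2% to 87.4%. The replicate block, a fit that treats equal replicate numbers as pairs, gave 2 higher and 8 lower in DSS against Control and 2 higher in GsMTx4 against DSS. Under it Sytl4 (adjusted p = 0.054) and Rab27b (0.0548) lost the call in the former, and Atoh1 gained and Creb3l1 lost the call in the latter. Correlations of same-numbered libraries lay between -0.23 and 0.10, a library correlated best with its own number in 3 of 9 cases over the 3 comparisons, and the numbers were not taken as pairs. Depth is unknown, so the precision of low values such as those of Sytl4 cannot be stated.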
